A study of Mus musculus with 27 samples.

Results

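Dppa2, Dppa4 and Dppa5a are 3 developmental pluripotency-associated genes of the mouse, and their RNA levels, promoter chromatin and single-cell counts are described here across naive, formative and primed pluripotent stem cells. The 3 genes were taken by symbol from a table of 23604 genes, and they were chosen on their RNA levels in these same libraries, so their levels and the differences between groups are given as a description, without a test. Dppa2 and Dppa4 encode small SAP-domain proteins that bind chromatin together, and in mouse embryonic stem cells they are known to keep certain promoters free of DNA methylation and marked with H3K4me3, and to act upstream of Dux and the 2-cell-like programme. Dppa5a encodes an RNA-binding protein with a KH domain. It is known for its very high expression in embryonic stem cells and germ cells. H3K4me3 is a histone mark of active or poised promoters, H3K27me3 is the mark placed by Polycomb repressive complex 2 (PRC2), and methylation of CpG sites in a promoter goes with stable silencing.

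The bulk RNA libraries held naive mouse embryonic stem cells (mESCs, n = 2) kept on gelatin with 1 uM PD035901, 3 uM Chir99021 and 1000 units/ml LIF, and epiblast-like cells (EpiLCs, n = 2) induced in 1% serum replacement with Activin A at 20 ng/ml and bFgf2 at 12 ng/ml. Epiblastoids, the 3-dimensional counterpart of EpiLCs grown in Matrigel, were sampled on days 2, 3 and 4 with 1 library each. Formative pluripotent stem cells (fPSCs) are stabilized Epiblastoids kept in the same Activin A and bFgf2 with XAV939, a tankyrase inhibitor that dampens Wnt signalling. They were sampled at passage 1 (1 library) and as 7 long-term libraries, namely P10, P20 and P30, CMT P11, 46C P24, BVSC P14 and ROSAmTmG P12. Further fPSCs at passage 10 came from E5.5 and E6.5 epiblasts (1 library each), and primed epiblast stem cells (EpiSCs, n = 2) were grown on inactivated mouse embryonic fibroblasts with 15% serum replacement, Activin A, bFGF2 and XAV939. All were labelled wild type, but the paper describes 3 of the lines as reporter lines. These are 46C (Sox1-GFP), BVSC (Blimp1 and Stella) and ROSAmTmG (tdTomato). It gives P1, P10, P20 and P30 as passages of the CMT line, and CMT P11 as cryopreserved. The labels do not say that replicates were separate cultures, so the spread between them may be technical. CMT P11, 46C P24, BVSC P14 and ROSAmTmG P12 carry later accession numbers and name a library kit that the other labels do not. Line and deposit cannot be told apart except for CMT, where the later library also differs in having been frozen.

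Marker lists, chosen with earlier results of these data known, are used first to describe the cell states. All 9 naive markers were lower and all 5 formative markers (Otx2, Fgf5, Zic2, Pou3f1, Dnmt3b) higher in EpiLCs than in mESCs by limma. Of all genes, 17.4% were called lower and 12.2% higher there. The same 9 were lower and the same 5 higher in long-term fPSCs than in mESCs, where 23% of all genes were called lower and 17.3% higher. The paper itself names these 9 as higher in mESCs, and Otx2, Fgf5, Zic2 and Dnmt3b as higher in fPSCs. Its lists were drawn from data of this series, so the fPSC calls describe the states and are no independent check. Zfp42 (-8.49 on the log2 scale), Esrrb (-7.46) and Klf2 (-7.04), all naive factors, changed most. Without 1 mESC library, 7 of the 9 naive markers passed in each of these comparisons with mESCs. EpiSC libraries also held RNA of fibroblast markers. The 18 markers summed to 756 and 923 FPKM there, with 15 and 16 of them at 1 FPKM or more. The other 17 libraries summed to 4.63 to 28.8 FPKM. Feeder RNA and expression by the EpiSCs themselves cannot be told apart by these markers. Most of them were far higher in EpiSCs than in EpiLCs, such as Col1a1 (111 and 153 FPKM against 0.405 and 0.306). The exceptions were Dcn, higher in EpiLCs (4.48 and 6.10 FPKM) than in EpiSCs (2.82 and 1.88), and Thy1. Thy1 was at 4.14 and 4.38 FPKM in EpiLCs and 4.63 and 4.01 in EpiSCs. Of 15 markers tested, 14 were lower in long-term fPSCs than in EpiSCs, where 19% of all genes were called lower. Fewer passed without 1 EpiSC library. The part of fibroblast RNA in the EpiSC values below was not tested. Each library held 10034 to 10933 genes at 1 FPKM or more. Read depth is unknown for FPKM, and in bulk RNA fewer expressing cells and less RNA per cell cannot be told apart.

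Dppa4 and Dppa2 lie side by side on the same strand of chromosome 16. In mm9, Dppa4 (ENSMUSG00000058550.7) spans chr16:48283848-48294405 on the plus strand with up to 9 exons in a transcript and 3 annotated coding transcripts. Dppa2 (ENSMUSG00000072419.4) spans chr16:48310590-48319836 on the plus strand with 7 exons, and its start lies 26742 bp downstream of the Dppa4 start. Dppa5a (ENSMUSG00000060461.5) is a gene of 3 exons on the minus strand at chr9:78214859-78215984. It has a near-identical copy, Dppa5b, whose start lies 122683 bp away, so reads of Dppa5a may be shared with copies and its level is uncertain to that extent.

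All 3 genes had RNA in mESCs, EpiLCs, Epiblastoids of days 2 and 3 and fPSCs at passage 1, and none exceeded 2.36 FPKM in any long-term fPSC, epiblast-derived fPSC or EpiSC library. They differed in where they were highest: Dppa2 and Dppa4 were highest in EpiLCs, whereas Dppa5a was highest in mESCs.

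Dppa2 was at 12.5 and 8.49 FPKM in the mESC libraries and at 84.4 and 46.1 FPKM in the EpiLC libraries. The groups did not overlap, and the EpiLC mean (65.2 ± 27.1 FPKM, SD, n = 2) was 6.21 times the mESC mean (10.5 ± 2.84, n = 2). How many of all genes separate these groups is not given here, so nothing is read from non-overlap, for this gene or those below. Epiblastoids held 64.0 FPKM on day 2, inside the EpiLC range, 16.0 FPKM on day 3 and 0.174 FPKM on day 4. fPSCs held 28.8 FPKM at passage 1. In the 7 long-term fPSC libraries Dppa2 ran from 0.608 (46C P24) to 2.36 FPKM (ROSAmTmG P12) with a median of 0.826, and P10, P20 and P30 held 0.737, 1.25 and 1.54 FPKM. E5.5 and E6.5 fPSCs (0.586 and 0.541 FPKM) and EpiSCs (0.702 and 0.604 FPKM) lay at the low end of that range or just under it. In order, EpiLCs and day 2 Epiblastoids were not separated, then came fPSCs at passage 1, day 3 Epiblastoids, mESCs, and the long-term fPSC, EpiSC and epiblast-derived libraries, with day 4 Epiblastoids lowest.

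Dppa4 was at 28.0 and 24.3 FPKM in mESCs and at 45.4 and 75.6 FPKM in EpiLCs. The groups again did not overlap, with an EpiLC mean 2.31 times the mESC mean. The EpiLC library that was higher for Dppa2 was the lower one for Dppa4, so the Dppa2 to Dppa4 ratio was 1.86 in one and 0.609 in the other, against 0.447 and 0.349 in mESCs. Epiblastoids held 47.1 FPKM of Dppa4 on day 2, 40.1 on day 3 and 0.782 on day 4, and fPSCs held 29.1 at passage 1. The 7 long-term fPSC libraries ran from 0.0861 (46C P24) to 0.689 FPKM (ROSAmTmG P12), with P10 at 0.220, P20 at 0.115, P30 at 0.285, CMT P11 at 0.296 and BVSC P14 at 0.300 FPKM. EpiSCs (0.183 and 0.133 FPKM) and E6.5 fPSCs (0.183) fell inside that range and E5.5 fPSCs (0.0464) under it. Dppa4 thus stayed near its day 2 level on day 3, when Dppa2 was at 16.0 FPKM, and both were under 1 FPKM on day 4.

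Dppa5a was by far the most abundant of the 3 in mESCs, at 1805 and 2532 FPKM. EpiLCs held 307 and 654 FPKM, and the mESC mean (2169 ± 515 FPKM) lay above the EpiLC mean (481 ± 245 FPKM) without overlap. Epiblastoids held 312 FPKM on day 2, inside the EpiLC range, 184 on day 3 and 12.2 on day 4, so this gene was still read on the day when Dppa2 and Dppa4 were under 1 FPKM. fPSCs held 61.6 FPKM at passage 1. Among the long-term fPSC libraries the value was listed at 0 in P10, was 0.109 in P20, 0.756 in P30, 0.433 in 46C P24, 0.497 in ROSAmTmG P12, 0.768 in BVSC P14 and 0.842 in CMT P11. EpiSC libraries were listed at 0 and 0.108 FPKM, E5.5 fPSCs at 0.115 and E6.5 fPSCs at 0, all within the long-term fPSC range.

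**Figure D1:**
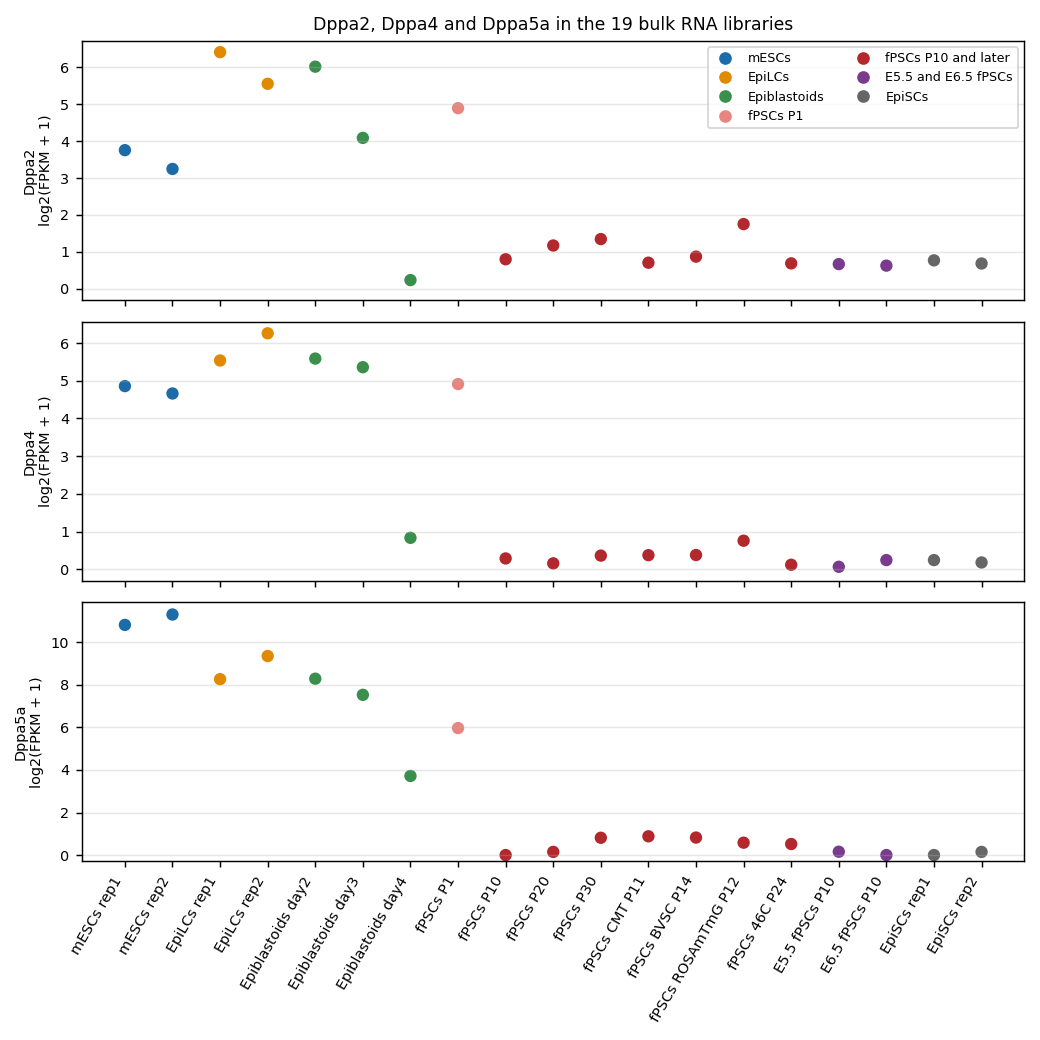
RNA level of Dppa2, Dppa4 and Dppa5a as log2(FPKM + 1) in each of the 19 bulk libraries, with 1 point per library and colour by group. The mESC, EpiLC, day 2 and day 3 Epiblastoid and fPSC P1 libraries lie at 8.49 FPKM or more for every gene, and the long-term fPSC, epiblast-derived and EpiSC libraries at 2.36 FPKM or less.

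On the log2(FPKM + 1) scale, the EpiLC minus mESC difference was 2.48 (SE 0.38) for Dppa2, 1.14 (SE 0.26) for Dppa4 and -2.25 (SE 0.37) for Dppa5a. These SEs come from the limma fit over mESCs, EpiLCs, EpiSCs and the 7 long-term fPSC libraries. The pseudocount of 1 makes the differences of low values smaller than the true ratio. Across all 12513 genes tested, 12.2% were called higher and 17.4% lower in EpiLCs than in mESCs (Benjamini-Hochberg adjusted p under 0.05 and 1.5-fold), and under upper-quartile scaling 1942 were called higher and 1934 lower in place of 1523 and 2183. This contrast was in view when the 3 genes were chosen, and nothing is read from their own position in it.

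Long-term fPSCs differed from mESCs by -2.46 (SE 0.30) for Dppa2, -4.41 (SE 0.21) for Dppa4 and -10.52 (SE 0.30) for Dppa5a on the same scale. In FPKM, the mESC mean was 9.24, 92.0 and 4458 times the long-term fPSC mean. In this comparison 17.3% of genes were called higher and 23% lower. Against EpiLCs, with the same 7 fPSC libraries, the differences were -4.94 (SE 0.30), -5.55 (SE 0.21) and -8.27 (SE 0.30), where 5.66% of genes were called higher and 8.15% lower. No fPSC library of passage 10 or more overlapped an mESC or EpiLC library for any of the 3 genes. The 3 genes were chosen on these levels, and the share of all genes without overlap is not given here. Against EpiSCs the differences were 0.32 (SE 0.30), 0.14 (SE 0.21) and 0.46 (SE 0.30), the groups overlapped for each gene, and 13.3% of genes were called higher and 19% lower. The comparisons share fPSC, mESC or EpiLC libraries and are not independent of each other.

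ROSAmTmG P12 was the highest fPSC library for Dppa2 and Dppa4 but not for Dppa5a. Without it the fPSC mean of Dppa2 was 0.931 ± 0.379 FPKM (n = 6) in place of 1.14 ± 0.643 (n = 7), and that of Dppa4 was 0.217 ± 0.0951 FPKM in place of 0.284 ± 0.199. By deposit, Dppa4 averaged 0.207 ± 0.0860 FPKM in P10, P20 and P30 and 0.343 ± 0.252 FPKM in the 4 later libraries. Dppa2 averaged 1.18 ± 0.406 and 1.1 ± 0.845 FPKM, and Dppa5a 0.288 ± 0.409 and 0.635 ± 0.200 FPKM. For each gene the ranges of the 2 deposits overlapped.

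The steepest steps lay between day 3 and day 4 of Epiblastoid culture and between passages 1 and 10 of fPSCs. With 1 library on each side there is no replicate check of these steps. From day 2 to day 3 the log2(FPKM + 1) difference was -1.93 for Dppa2, -0.23 for Dppa4 and -0.76 for Dppa5a, beside a median of 0.12 over 11095 genes that reached 1 FPKM in one of the libraries compared. From day 3 to day 4 it was -3.86, -4.53 and -3.81, beside a median of -0.14 over 11357 genes. The ratio of day 3 to day 4 in FPKM was 91.8 for Dppa2, 51.2 for Dppa4 and 15.1 for Dppa5a. From passage 1 to passage 10 the differences were -4.10, -4.63 and -5.97, beside a median of -0.01 over 10850 genes. Dppa5a ended at a listed 0 there, and the P1 to P10 ratios of Dppa2 and Dppa4 were 39.0 and 132.

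Next come 3 genes listed for promoters that knockout work in mouse embryonic stem cells ties to Dppa2 and Dppa4: Mael, a germline gene of the piRNA pathway, Syce1, a protein of the meiotic synaptonemal complex, and Nkx2-5, a cardiac transcription factor. Mael was at 1.47 and 1.6 FPKM in mESCs, 18.7 and 26.3 in EpiLCs, 15.3, 6.97 and 0.215 in Epiblastoids of days 2, 3 and 4, and 5.60 in fPSCs at passage 1. It was listed at 0 in all 7 long-term fPSC, both epiblast-derived fPSC and both EpiSC libraries. These 11 libraries held at most 2.36 FPKM of any of the 3 Dppa genes. Syce1 was at 7.14 and 5.09 FPKM in mESCs, 6.11 and 7.92 in EpiLCs, 6.58, 3.89 and 0.185 in Epiblastoids and 2.58 at passage 1, and was listed at 0 in the same 11 libraries as Mael. By limma Mael was higher in EpiLCs than in mESCs (log2 difference 3.20, SE 0.14, adjusted p = 4.67e-09), and Syce1 did not pass (0.18, SE 0.15, adjusted p = 0.416). Both were lower in long-term fPSCs than in mESCs (adjusted p = 8.43e-07 for Mael and 9.23e-10 for Syce1, limma) and than in EpiLCs (2.45e-10 and 2.75e-09). Nkx2-5 stayed at or under 0.640 FPKM in every library and was below the filter for testing.

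Of the other genes that share the Dppa name, Dppa3 (Stella), a maternal factor that guards the zygote's methylation, was at 56.4 and 194 FPKM in mESCs and at 0.958 and 1.15 in EpiLCs. On the log2(FPKM + 1) scale its difference was -5.69 (SE 0.38, limma adjusted p = 1.64e-07), in the direction of Dppa5a and opposite to Dppa2 and Dppa4. In long-term fPSCs it did not exceed 0.032 FPKM. Dppa1 did not exceed 0.069 FPKM in any library. Of 10 KH-domain and maternal-effect genes related to Dppa5a by domain or complex, 4 were high enough to test. In fPSCs against mESCs, 3 of these were lower and 1 higher, where 23% of all genes were called lower and 17.3% higher. Khdc3, a partner in the oocyte subcortical complex, fell from 72.6 and 106 FPKM in mESCs to at most 0.023 FPKM in long-term fPSCs (log2 difference -6.47, SE 0.12, limma adjusted p = 5.62e-13). Ooep, the Dppa5a neighbour that encodes another KH-domain subunit of that complex, was at 25.5 and 33.3 FPKM in mESCs, 2.35 and 4.74 in EpiLCs, and listed at 0 in long-term fPSCs and EpiSCs. Zbed3 of the same complex rose (1.70, SE 0.42, limma adjusted p = 0.00570). Its level differed by deposit without overlap, at 36.7 to 43.2 FPKM in P10, P20 and P30 and 12.5 to 16.8 FPKM in the 4 later libraries. The difference from mESCs passed in each (2.46, SE 0.15, and 1.12, SE 0.15). Without mESC replicate 1 only 2 of these 4 genes passed, against 4 with both mESC libraries.

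Genes of the 2-cell-like programme, in which Dppa2 and Dppa4 act upstream, were barely read. None of the 19 list members in the table (of 24) reached 1 FPKM in 2 libraries of the 4 groups fitted, so none was tested. Their summed level ran from 0.0464 to 7.93 FPKM over the 19 libraries. The highest sum was that of day 2 Epiblastoids, where Zscan4f (1.55 FPKM) and Zscan4e (1.39 FPKM), both chosen after their values were seen, were the only 2 members at 1 FPKM or more in any library. Zscan4 copies are near identical and their reads may be shared. The mESC libraries summed to 2.80 and 0.0464 FPKM, the latter the lowest of all 19 although that library held 8.49 FPKM of Dppa2 and 24.3 FPKM of Dppa4. EpiLCs summed to 4.49 and 2.69 FPKM, fPSCs at passage 1 to 3.89, and the 7 long-term fPSC libraries to 0.145 to 0.813 FPKM.

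The enzymes behind the marks at these promoters were also read. Of 8 DNA methylation enzymes, 3 were higher and 1 lower in EpiLCs than in mESCs, where 12.2% of all genes were called higher and 17.4% lower. The list median was 0.69 on the log2 scale beside -0.06 over all genes. In long-term fPSCs 3 were higher and 2 lower than in mESCs, where 17.3% of all genes were called higher and 23% lower. The de novo methyltransferase Dnmt3b was up by 4.99 (SE 0.18, limma adjusted p = 2.34e-10) and Dnmt3a by 3.63 (SE 0.35, 2.81e-06). Dnmt3l, their catalytically inactive cofactor, was higher in EpiLCs than in mESCs (2.49, SE 0.42, limma adjusted p = 6.35e-04) and lower in long-term fPSCs than in either (-3.28 against mESCs and -5.77 against EpiLCs, SE 0.34). Its FPKM were 17.5 and 4.18 in mESCs, 71.6 and 40.6 in EpiLCs, 29.7, 3.00 and 0.0113 on days 2, 3 and 4, 0.879 at passage 1, and at most 0.028 in long-term fPSCs. Dnmt3l and Dnmt3a were the 2 enzymes lower in long-term fPSCs than in EpiLCs, where 8.15% of all genes were called lower. Without mESC replicate 2, 3 of the 8 enzymes passed in fPSCs against mESCs, against 5 with both.

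Of 12 genes of H3K4 methyltransferase complexes, 3 were higher and 3 lower in long-term fPSCs than in mESCs, where 17.3% of all genes were called higher and 23% lower. The list had a median of -0.05 on the log2 scale beside -0.04 over all genes. The core subunits Ash2l (-1.89, SE 0.18) and Wdr5 (-1.38, SE 0.17) were lower and the methyltransferase Setd1b higher (1.51, SE 0.42). The 2 deposits did not overlap for Setd1b, which was at 8.98 to 12.5 FPKM in P10, P20 and P30 and at 3.75 to 5.20 FPKM in the 4 later libraries. Against mESCs its difference was 2.17 (SE 0.28) with the first 3 alone and 1.02 (SE 0.26) with the later 4 alone, and it passed in both. In EpiLCs 2 of the 12 were lower than in mESCs, where 17.4% of all genes were called lower, and fewer passed without mESC replicate 1. Of 12 PRC2 genes, 6 were lower in long-term fPSCs than in mESCs, where 23% of all genes were called lower, and the other 6 did not pass. The list median was -0.68 on the log2 scale, beside -0.04 over all genes. Epop (-2.39, SE 0.26), Mtf2 (-1.65, SE 0.36) and Ezh1 (-1.46, SE 0.22), which are accessory subunits and a methyltransferase of PRC2, changed most. Mtf2 was at 9.62 to 11 FPKM in P10, P20 and P30 and at 19.1 to 27.8 FPKM in the 4 later libraries, and its difference from mESCs was -2.26 (SE 0.18) and -1.19 (SE 0.20). Epop, Ezh1, Ash2l, Wdr5 and Dnmt3a also did not overlap between deposits, and each passed in the same direction within both. Dpy30, Hcfc1 and Ezh2, which are in the counts above, did not overlap either. They passed with P10, P20 and P30 (-1.36, 1.15 and -1.27) but not with the later 4 alone (-0.57, 0.61 and -0.55). Kmt2b, Setd1a, Wdr82, Rbbp4, Phf1 and Uhrf1 passed in 1 deposit only and not with both together. In EpiLCs 3 PRC2 genes were lower than in mESCs, where 17.4% of all genes were, and 1 passed under upper-quartile scaling, without either mESC library or without EpiLC replicate 1.

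The promoters of the 3 genes were highly methylated in fPSCs at passage 10, in contrast to their histone marks, which were near or under the level of a typical promoter. Within 5000 bp of the start H3K4me3 lay under the median of all promoters at each, and H3K27me3 under it at Dppa2 and Dppa4 and just above it at Dppa5a (0.386 against 0.379 RPKM). Each mark is 1 deposited track, so these values have no replicate error, and the coverage behind each methylation value is unknown. Within 1000 bp of the start site the mean methylated fraction was 0.834 for Dppa2 (15 windows of 100 bp with a value), 0.912 for Dppa4 (13 windows) and 0.881 for Dppa5a (7 windows). Among 21806 protein-coding promoters these were at percentiles 69.8, 82.4 and 75.8, and among promoters of genes under 1 FPKM in the same fPSC library at percentiles 51.0, 72.3 and 61.2. The median was 0.177 over promoters of genes at 1 FPKM or more, 0.827 over those under 1 FPKM and 0.357 over all. A mean of 0.5 or more was found at 8.31%, 68.4% and 42.7% of them. High methylation at the 3 promoters was thus of the size usual for genes with little RNA in these cells.

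**Figure D2:**
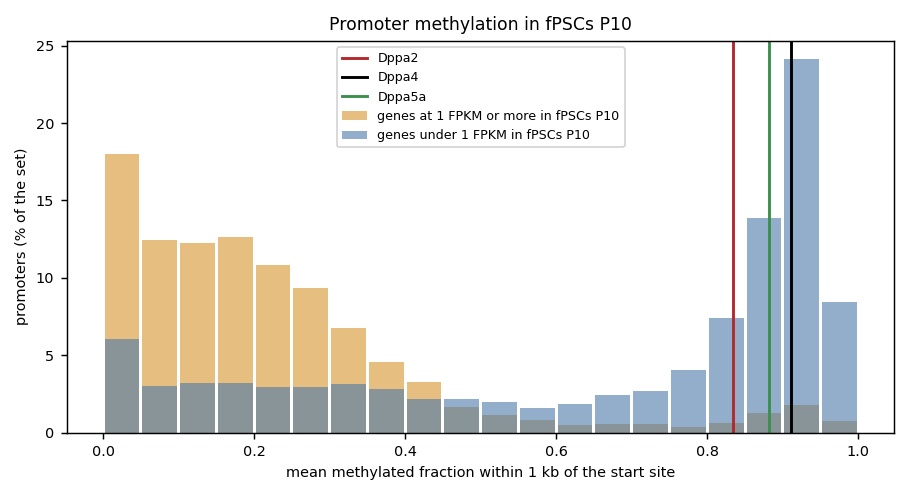
Distribution of the mean methylated fraction within 1000 bp of the start site in fPSCs P10, in steps of 0.05, as the percentage of promoters of genes at 1 FPKM or more (orange) and under 1 FPKM (blue), with the 3 genes as vertical lines. The lines at 0.834, 0.881 and 0.912 lie in the upper part, where many promoters of genes under 1 FPKM are found and few of the others.

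Methylation was not uniform near the Dppa2 start. A window centred 140 bp upstream of it (chr16:48310401-48310500) had a fraction of 0.330, the lowest of the 15 windows, whereas 10 of the 15 were at 0.8 or more and the median was 0.890. At Dppa4 the 13 windows ran from 0.670 to 1, and at Dppa5a the 7 windows ran from 0.75 to 1. No window within 1000 bp of any of the 3 starts was at 0.2 or less. Across the Dppa4 gene body 54 of 57 windows were at 0.8 or more, and across that of Dppa2 40 of 49. The body of Dppa5a held 1 window with a value (0.830), so methylation inside that short gene was hardly measured.

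The promoters are of modest CpG content. In the 1001 bp around the start, the mm9 sequence has 16 CpG sites at Dppa2, 19 at Dppa4 and 29 at Dppa5a, against a median of 41 over 22060 protein-coding promoters. Dppa5a thus had the most CpG sites of the 3 but the fewest windows with a methylation value. The observed over expected CpG ratio was 0.327, 0.390 and 0.441, at percentiles 34.6, 39.3 and 42.8.

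H3K4me3 averaged 0.410 RPKM within 5000 bp of the Dppa2 start, 0.472 at Dppa4 and 1.08 at Dppa5a, against medians of 1.89 over promoters of genes at 1 FPKM or more and 0.464 over those under 1 FPKM. The 3 values were at percentiles 28.3, 30.6 and 48.4 of all promoters. No bin within 5000 bp exceeded 2.49 RPKM at Dppa2, 3.73 at Dppa4 or 6.22 at Dppa5a, where 1.24 RPKM is the smallest value listed anywhere in the track. The highest Dppa5a bins lay 3234 and 3434 bp downstream of its start, beyond the end of the gene, and within 1000 bp of the start the mean was 0.434 RPKM. Among promoters of genes under 1 FPKM the Dppa5a value over 5000 bp was at percentile 74.0, and those of Dppa2 and Dppa4 at 46.3 and 50.1. At Dppa4 the mean was higher close to the start, at 1.06 RPKM within 1000 bp. H3K27me3 averaged 0.334, 0.270 and 0.386 RPKM, at percentiles 45.5, 38.3 and 50.7, with no bin within 5000 bp above 1.93, 2.58 and 4.51 RPKM. The median over promoters of genes under 1 FPKM was 0.547 RPKM, above all 3 values.

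**Figure D3:**
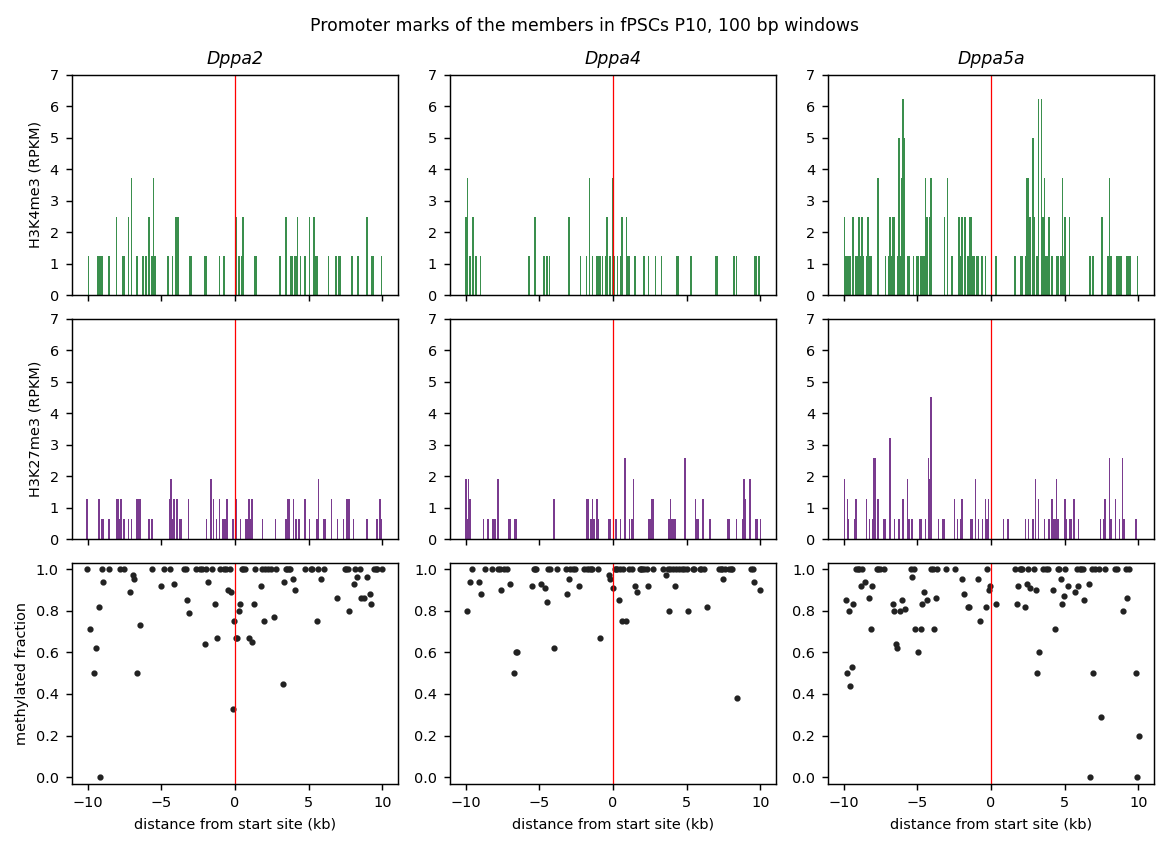
H3K4me3 and H3K27me3 (RPKM) and methylated fraction in 100 bp windows within 10 kb of the start site (red line) of Dppa2, Dppa4 and Dppa5a in fPSCs P10, with positive distance in the direction of transcription. H3K4me3 reaches 3.73 RPKM in single bins near the Dppa4 start and 6.22 RPKM only away from the Dppa5a start, and most methylation points lie at 0.8 or more, with 0.330 just upstream of Dppa2.

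The 3 genes tied to Dppa2 and Dppa4 had unlike promoters in the same fPSCs. Mael and Syce1 were methylated at 0.966 and 0.956 with 0.360 and 0.186 RPKM of H3K4me3, whereas Nkx2-5 had a fraction of 0.0213, 3.74 RPKM of H3K4me3 and 5.69 RPKM of H3K27me3. The last value was at percentile 99.8 of all promoters. Dppa3 and Dppa1 were methylated at 0.922 and 0.916, and Ooep at 0.809.

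Genes with the most similar pattern were sought over the 19 libraries by Pearson's r of log2(FPKM + 1) among 7833 genes reaching 10 FPKM in at least 1 library. These libraries share states and lie mostly at a high or a low level, so r mainly describes which libraries hold RNA. Dppa2 was most like Slc5a11, an inositol transporter (r = 0.970), Mael (0.960), Dppa4 (0.955), the secreted phospholipase Pla2g10 (0.949) and the neurofilament gene Nefh (0.947). Dppa4 was most like the X-linked homeobox gene Rhox5 (0.983), the germ cell acyltransferase Gpat2 (0.962), Pnma5 (0.961), Fmr1nb (0.958) and the DNA sensor Aim2 (0.957). Dppa5a was most like Rbmxl2, a testis RNA-binding gene (0.997), Gpat2 (0.994), Prr23a3 (0.988), Aim2 (0.986) and the inflammasome adaptor Pycard (0.985). Between the 3 genes themselves, r was 0.955 for Dppa2 and Dppa4, 0.943 for Dppa4 and Dppa5a, and 0.836 for Dppa2 and Dppa5a. Without the mESC libraries (n = 17) it was 0.969, 0.978 and 0.928.

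The similar genes differed in where they were highest. Rhox5 rose from 77.7 and 126 FPKM in mESCs to 247 and 265 in EpiLCs, and Slc5a11 from 2.61 and 4.12 to 9.80 and 6.77. Rbmxl2 went from 66.4 and 95.1 FPKM to 19.9 and 38.8, and Gpat2 from 20.1 and 22.8 to 11.3 and 11.9. Gpat2 is thus among the genes most like Dppa4 although Dppa4 was higher in EpiLCs. In long-term fPSCs Mael, Fmr1nb, Rbmxl2 and Prr23a3 were listed at 0 in each of the 7 libraries. Of the 12 similar genes other than the 3 themselves, 10 had an annotated promoter with a methylation value in fPSCs P10. Of these, 8 were at a mean fraction of 0.5 or more and 7 at 0.8 or more, with a median of 0.889. Aim2 (0.341) and Nefh (0.242) were the 2 below 0.5, and Nefh also carried 4.00 RPKM of H3K27me3. For comparison, 42.7% of all promoters and 68.4% of those of genes under 1 FPKM were at 0.5 or more. These genes were picked for low RNA in the same fPSCs, among other libraries, so their share has no test.

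**Figure D4:**
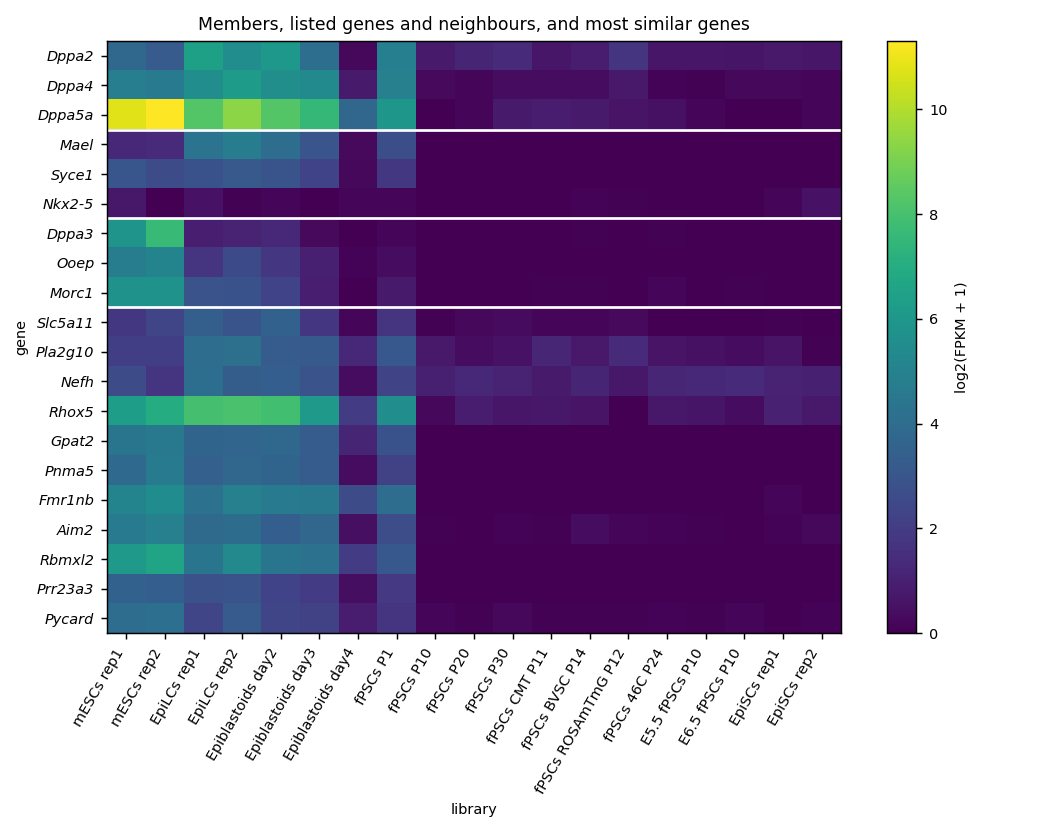
log2(FPKM + 1) of Dppa2, Dppa4 and Dppa5a, of Mael, Syce1 and Nkx2-5, of Dppa3, Ooep and Morc1, and of the most similar genes, in the 19 libraries. White lines separate these 4 blocks. Mael, Rhox5 and Slc5a11 are brightest in EpiLCs and day 2 Epiblastoids like Dppa2, and Rbmxl2 and Gpat2 in mESCs like Dppa5a.

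Neighbours on the chromosome did not all share the pattern. Besides each other, Morc1, a germline gene for transposon silencing whose start lies 120760 bp from that of Dppa2, is the only protein-coding gene of the FPKM table whose start is within 250000 bp of the Dppa2 and Dppa4 starts. It was at 55.2 and 54.5 FPKM in mESCs and 6.41 and 6.17 in EpiLCs (log2 difference -2.94, SE 0.13, limma adjusted p = 5.20e-09), opposite in direction to Dppa2 and Dppa4. It was at most 0.103 FPKM in long-term fPSCs, with a promoter methylated at 0.949. Next to Dppa5a, Ooep (10548 bp away) and Gsta2 (12389 bp away) were low in long-term fPSCs too. Gsta4, a glutathione transferase 176211 bp away, kept a mean of 131 FPKM there, down from 437 FPKM in mESCs (log2 difference -1.73, SE 0.21, limma adjusted p = 1.98e-05). Its promoter was methylated at 0.0912. Among other tested neighbours, Ddx43 (27600 bp away, -1.47, SE 0.12), Slc17a5 (-0.64, SE 0.20) and Cd109 (-1.64, SE 0.26) were also lower in long-term fPSCs than in mESCs. Mto1 (80031 bp away, -0.10, SE 0.18) and Eef1a1 (120974 bp away, -0.22, SE 0.33) did not pass.

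Single fPSCs gave almost no counts of the 3 genes. The labels state 192 cells from 4 clones, the tables hold 182, and 181 had at least 500 genes. Clones summed to 1501395 to 4712214 counts. Dppa2 had 8 counts, all in 1 cell of clone 1 (0.552% of 181 cells, exact 95% binomial interval 0.0140% to 3.04%). Dppa4 had 4 counts in 3 cells (1.66%, interval 0.343% to 4.77%), with 2 counts in a cell of clone 2 and 1 count in each of 2 cells of clone 4. Dppa5a had 1 count in 1 cell of clone 1 (0.552%, interval 0.0140% to 3.04%). The table of clones 3 and 4 lists no row for Dppa2 or Dppa5a, which is read here as 0 counts. In clone 1, Dppa2 was at 5.33 CPM (counts scaled to the clone's total). All of it came from 1 cell, so the counts are not independent and no interval is given for the clone. For scale, 3 counts in a clone correspond to 0.637 to 2.00 CPM. The binomial intervals treat the cells of the 4 clones as independent. Intervals and floors cover counting error only.

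These counts bear only weakly on the absence of a gene from a cell. Pou5f1, a core pluripotency factor, had a count in 17 of the 181 cells (9.39%), Fgf5 in 137 (75.7%) and Dnmt3b in 180 (99.4%). Otx2 had a count in 121 cells (66.9%) and Sox2 in 25 (13.8%). In bulk fPSCs P10, Dnmt3b, Pou5f1, Fgf5, Otx2 and Sox2 were at 547, 493, 107, 48.9 and 26.6 FPKM. The share of cells with a count followed the order of the bulk level for Dnmt3b, Fgf5, Otx2 and Sox2, but not for Pou5f1. The cause was not tested. Dppa3 has no row in either single-cell table, and no share of cells is given for it. The cell with 8 Dppa2 counts held 47733 counts and 3729 genes, and no count of Dppa4 or Dppa5a. No cell had counts of more than 1 of the 3 genes. Whether these are reads or molecules is not stated.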

How the data were processed

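Bulk RNA of 19 mouse libraries was read from the FPKM values deposited by the authors, whose notes name cutadapt 1.11 for trimming, TopHat2 2.1.1 for alignment to Ensembl cDNA (mm9) and Cufflinks 2.1.1 for FPKM; read depth is unknown. H3K4me3 and H3K27me3 were deposited by the authors as RPKM per 100 bp bin (Bowtie2 2.2.2, mm9), with bins lacking reads not listed and taken as 0 here. The methods merge replicates for later steps, but whether these tracks are merged is not given in the sources used here. Methylation was deposited as a methylated fraction per 100 bp window (BS-Seeker2, mm9) without coverage. Single-cell counts were deposited by the authors as whole numbers per gene and cell, with 1 column name used for 2 cells, both kept.

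The 3 genes and all lists were chosen with earlier results of these data known. Of 23608 entries, 4 with a repeated name were dropped. Values were log2(FPKM + 1), and limma 3.58.1 (R 4.3.3) was fitted with its trend option to mESCs, EpiLCs, EpiSCs and 7 long-term fPSC libraries on 12513 genes that reached 1 FPKM in 2 or more of them. It was tested on simulated data with 200 changed genes. A gene was called at 1.5-fold or more with p below 0.05 after Benjamini-Hochberg adjustment. Lists of up to 5 genes were named in full and longer ones by the 3 largest changes in fPSCs against mESCs among those passing. Further named genes were the 5 most similar to each of the 3 and protein-coding neighbours within 250000 bp. Promoters used the outermost start of GENCODE vM1 (NCBIM37, the same build as mm9) for 22072 protein-coding genes, with 5000 bp to each side for histone marks and 1000 bp for methylation. On chromosomes 9 and 16, 99.4% of methylation windows held a CpG in that genome. Alternatives were the pseudocount, filter, scaling, samples, window sizes, likeness measure and cell filter. Sequences were not used here beyond CpG counts.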

Additional observations from a re-analysis of the deposited data

Results flagged for a closer look

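Dppa4 in ROSAmTmG P12, at 0.689 FPKM, stood apart from the other long-term fPSC libraries. The gap to the next library, BVSC P14 at 0.300 FPKM, was 0.646 of the whole range of the 7 libraries, above Dixon's critical value for 7 values. This is given as a description of a library, since the genes were chosen on these levels. Chance passes that value in about 1 of 20 groups, and 6 genes were looked at in this way, of which 1 passed. Dppa2 was also highest in ROSAmTmG P12 (2.36 FPKM), but its gap of 0.470 of the range stayed under that value, and Dppa5a was not highest there. The level of Dppa4 in ROSAmTmG P12 was still far under the lowest mESC library (24.3 FPKM). The other later libraries, CMT P11, 46C P24 and BVSC P14, held 0.296, 0.0861 and 0.300 FPKM of Dppa4, so the later deposit did not share this level as a whole. With 1 ROSAmTmG library, its line and other features of the library cannot be told apart, and the cause was not tested.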

How the results depend on the processing

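The differences of the 3 genes kept their direction under every alternative run. With a pseudocount of 0.1 they grew: fPSCs minus mESCs was -3.22 for Dppa2, -6.23 for Dppa4 and -12.17 for Dppa5a, fPSCs minus EpiLCs was -5.80, -7.40 and -9.92, and fPSCs minus EpiSCs was 0.44 for Dppa4 and 1.69 for Dppa5a. Without 1 replicate of a group of 2, EpiLCs minus mESCs ran from 2.06 to 2.91 for Dppa2, 0.78 to 1.5 for Dppa4 and -2.79 to -1.71 for Dppa5a. Counts of called genes fell without 1 replicate, to 2291 to 3019 of 3706 in EpiLCs against mESCs, 865 to 890 of 1728 in fPSCs against EpiLCs, 1523 to 2455 of 4041 in fPSCs against EpiSCs and 3413 to 3518 of 5047 in fPSCs against mESCs; the lone sample is then assumed to vary like the other groups. In fPSCs against EpiLCs 3178 genes were called with P10, P20 and P30 alone and 2648 with the 4 later libraries alone. With the replicate block, 4107 genes were called in EpiLCs against mESCs. Same-numbered mESC and EpiLC libraries deviated together only weakly (r = 0.204), with 2 pairs, so the block was not used. Of the counts of called list genes, 292 stayed within 1.5 times and 38 moved further. A count of 0 in both fits was taken as unmoved. No 2-cell-like gene was tested in the main fit, so the 292 include counts that could hardly move. H3K4me3 at Dppa4 was 1.06 RPKM within 1000 bp and 0.720 within 2500 bp, and at Dppa5a 0.434 and 0.696. By Spearman's rho 1 of the 5 genes most like Dppa2 and 0 of those most like Dppa4 or Dppa5a stayed in the top 5, and without the 2 mESC libraries 2, 3 and 3 did. The cause of these changes was not tested. FPKM and fractions without depth or coverage set no limit for low values.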
